A study of Mus musculus with 39 samples.

Results

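The genes described here build the DNA replication machinery and supply its nucleotides. A list of 48 gene symbols was looked up in the annotation of an Affymetrix mouse expression array, and for each symbol the probe set with the greatest average level across 39 arrays was used. Of the 48 symbols, 45 had a probe set that carried that symbol alone, among 12393 genes measured in this way. Gins2, Chaf1a and E2f2 had none and were not analysed here. No filter on low values was applied, so all 45 genes were tested in every comparison. The list covers 6 subunits of the MCM helicase, 6 genes of origin recognition and licensing, 4 of origin firing, 8 polymerase and primase subunits, 6 genes of the sliding clamp and its loader, and 5 of single-strand binding and Okazaki fragment joining. It further covers 5 genes of nucleotide supply, 1 of chromatin assembly, 2 of fork protection and checkpoint, and 2 E2F transcription factors.

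The study compared normal stages of B-cell development with leukemic cells of mice, which the series title describes as MLL-AF4, a fusion oncogene of acute lymphoblastic leukemia. All samples were RNA of cells sorted from bone marrow. Normal cells came from adult mice. Pro-B cells (sorted as B220+ CD43+ IgM- IgD-) were on 6 arrays, while 8 carried pre-B cells (B220+ CD43- IgM- IgD-), 6 carried immature B cells (B220+ CD43- IgM+ IgD-) and 3 carried mature B cells (B220+ CD43- IgM+ IgD+). The other 16 arrays carried leukemic cells sorted with the pre-B gate from the marrow of leukemic mice, and 5 of these mice had become leukemic following pIpC, a synthetic double-stranded RNA that triggers an interferon response and is commonly used to switch on Mx1-Cre. The descriptions give no genotype for the other leukemic mice apart from array 116, described as pre-B cells of a mouse with an Mll-AF4stop knock-in and with no word on leukemia. The cell type label of array 116 is leukemic pre-B, and it was grouped by that label. Strain and age are not given in the sources used here beyond adult for the normal mice. The labels do not say whether normal arrays of a group came from separate mice, so p-values here capture only how these samples vary, which may be partly technical.

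Replication begins when the origin recognition complex, Cdc6 and Cdt1 load the ring-shaped MCM helicase onto origins in G1 phase. Cdc7 kinase, Cdc45 and the GINS complex then switch the helicase on, polymerases copy both strands behind it, and ribonucleotide reductase, thymidylate synthase and thymidine kinase supply deoxynucleotides. Most of these genes are transcribed at the G1/S boundary under E2F factors. In the B lineage, early pro-B cells and large pre-B cells divide rapidly, whereas small pre-B cells and immature B cells are largely resting, and a B220+ CD43- IgM- gate holds both large and small pre-B cells.

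The promoters of 6 genes are shown because they are the licensing and helicase genes whose E2F-type letters all lie before the start (Cdc6, Mcm5, Mcm6, Orc1) or the measured genes with such letters that were not called between pre-B and immature B cells (Cdt1, Pold1). The sequences are from RefSeq (GRCm38.p6), read in the direction of transcription. The capitals mark TTTCCCGC, TTTGGCGC, TTTCGCGC or TTTGCCGC, the E2F-type letters searched on both strands.
Cdc6, chr11:98907901-98908150, + strand, 250 bases before the start: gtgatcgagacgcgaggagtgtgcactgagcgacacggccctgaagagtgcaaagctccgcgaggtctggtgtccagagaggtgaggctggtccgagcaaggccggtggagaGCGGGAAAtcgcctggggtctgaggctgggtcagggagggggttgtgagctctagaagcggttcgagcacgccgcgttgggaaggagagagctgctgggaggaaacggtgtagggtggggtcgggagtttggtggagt
Mcm5, chr8:75109259-75109508, + strand, 250 bases before the start: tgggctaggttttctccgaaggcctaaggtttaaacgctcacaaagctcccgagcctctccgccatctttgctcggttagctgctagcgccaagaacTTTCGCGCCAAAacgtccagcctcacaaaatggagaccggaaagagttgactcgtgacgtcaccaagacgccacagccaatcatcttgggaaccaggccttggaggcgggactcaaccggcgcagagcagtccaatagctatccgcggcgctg
Mcm6, chr1:128359706-128359955, - strand, 250 bases before the start: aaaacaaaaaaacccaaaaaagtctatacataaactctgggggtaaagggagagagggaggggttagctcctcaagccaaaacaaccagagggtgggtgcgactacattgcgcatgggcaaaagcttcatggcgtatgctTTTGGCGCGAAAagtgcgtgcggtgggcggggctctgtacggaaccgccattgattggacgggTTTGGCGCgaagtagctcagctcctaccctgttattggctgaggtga
Orc1, chr4:108579204-108579453, + strand, 250 bases before the start: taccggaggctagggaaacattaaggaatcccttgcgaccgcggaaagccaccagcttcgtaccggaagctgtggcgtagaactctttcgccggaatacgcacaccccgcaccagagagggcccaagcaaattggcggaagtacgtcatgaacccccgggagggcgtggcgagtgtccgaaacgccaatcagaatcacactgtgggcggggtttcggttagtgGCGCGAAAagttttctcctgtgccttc
Cdt1, chr8:122568035-122568064, + strand, bases 21 to 50 after the start: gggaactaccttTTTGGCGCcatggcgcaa
Pold1, chr7:44548766-44548795, - strand, bases 21 to 50 after the start: cacggcggcgtatcttgtgGCGGGAAAagc

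In Cdc6 the match began 138 bases before the start and in Orc1 27 bases before it. Mcm5 held a pair of overlapping matches at 153 and 149 bases before the start. Mcm6 held an overlapping pair at 110 and 106 bases and a single match at 47 bases. In Cdt1 and Pold1, 32 and 39 bases lay between the start and the match. Mcm3 and Mcm7 also held matches, at least 1 of them after the start, and are not shown. The promoter table held 41 of the 48 listed genes, with 49 promoters of 300 bases (250 before to 50 after each start). E2F-type letters were found in 13 of these 41 genes (31.7%): Cdc6, Cdt1, E2f2, Lig1, Mcm3, Mcm5, Mcm6, Mcm7, Orc1, Pola1, Pold1, Pole2 and Rfc3. The share was 4.07% (402 of 9887) among genes measured on the arrays and 2.6% (704 of 27025) among all genes of the table. The letters CCAAT, searched on both strands, were found in 24 of 41 listed genes (58.5%) against 42.3% of measured genes. A match describes the letters in this window only.

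The deposited intensities were taken to log2, and the array medians spanned 6.36 to 6.76. The means of the stage marker lists followed the labels in the normal stages. The mean of the immature and mature B markers was 10.97 in immature B and 11.88 in mature B cells against 9.11 in pre-B cells. That of the pre-B markers was 10.78 in pre-B cells against 9.83 in pro-B and 9.64 in immature B cells. That of the pro-B markers was 10.01 in pro-B against 8.98 in pre-B cells. Single markers did not all follow. From pro-B to pre-B cells 5 of 9 pro-B markers fell and 2 rose, while 8 of 10 pre-B markers rose and 1 fell. From pre-B to immature B cells 6 of 10 pre-B markers fell and 2 rose. The pro-B and pre-B lists share Igll1, Vpreb1 and Rag1. Leukemic array 122 stood apart, with a pre-B marker mean of 6.99 against 9.80 to 10.69 on the other 15 leukemic arrays, a myeloid marker mean of 9.86 and a plasmacytoid dendritic marker mean of 9.65. Counts of the leukemic comparisons are therefore given with and without array 122, and with and without array 116. Immature B arrays 2 and 3, pro-B arrays 4 and 6 and pro-B arrays 1 and 3 were close to identical, with SDs of their log2 differences of 0.13, 0.19 and 0.22, whereas the medians over pairs within a group ran from 0.47 to 0.86. They were kept as separate arrays, and counts with each such pair averaged are given where they differ. The accessions form 2 runs (22 and 17 arrays) that no label explains, and values within each run are given beside the main results.

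The replication genes were high in pre-B, leukemic and pro-B cells and low in immature and mature B cells. Their mean log2 level was 10.09 ± 0.30 (SD, n = 8) in pre-B cells, 10.05 ± 0.36 (n = 16) in leukemic cells, 9.86 ± 0.53 (n = 6) in pro-B cells, 8.82 ± 0.38 (n = 6) in immature B cells and 8.65 ± 0.35 (n = 3) in mature B cells. The pro-B, pre-B and leukemic ranges overlapped (9.28 to 10.50, 9.64 to 10.54 and 9.52 to 10.51), as did those of immature and mature B cells (8.09 to 9.09 and 8.32 to 9.01). No pro-B, pre-B or leukemic array reached down to any immature or mature B array. In run 1 and run 2 the means were 9.58 and 10.14 in pro-B, 9.92 and 10.26 in pre-B, 8.58 and 9.06 in immature B, and 9.93 and 10.41 in leukemic cells, so every group with arrays in both runs was higher in run 2. In RNA of sorted bulk cells, fewer dividing cells and less of an RNA per cell cannot be told apart.

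**Figure D1:**
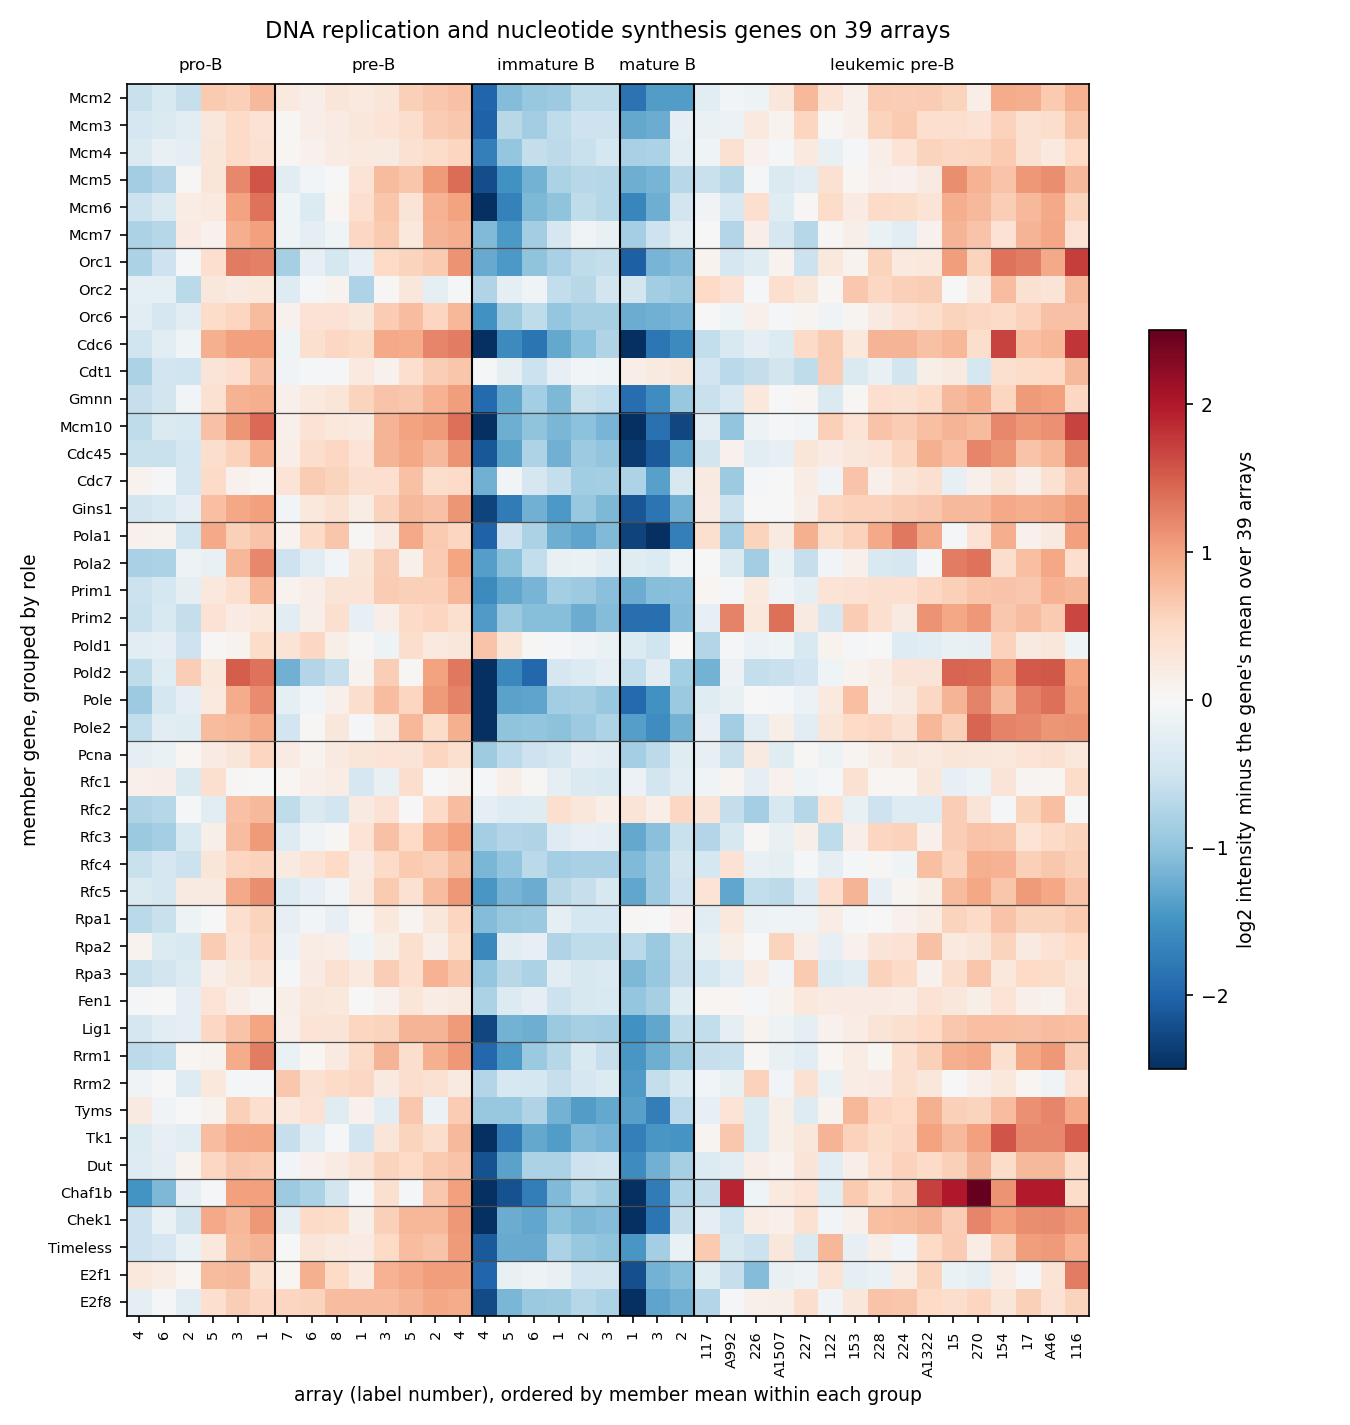
Log2 level of each of the 45 replication and nucleotide supply genes (rows, by role) on each of the 39 arrays (columns, by group, ordered within a group by their mean), relative to that gene's mean over all arrays and with the colour scale clipped at 2.5 in both directions. Most genes are low on all immature and mature B arrays and high on pre-B and leukemic arrays, and within the pro-B group the columns split.

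**Figure D2:**
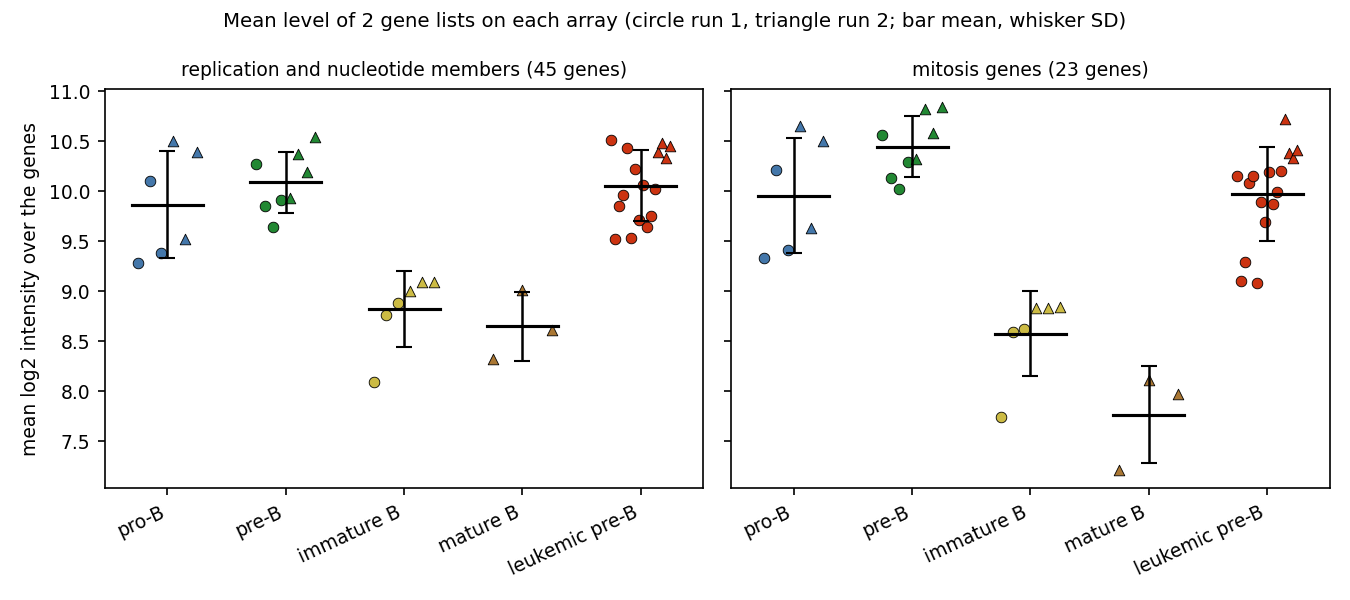
Mean log2 level of the 45 replication and nucleotide supply genes and of 23 mitosis genes on each array, by group; circles are arrays of run 1, triangles of run 2, bars group means and whiskers 1 SD. The replication genes had means of 10.09 in pre-B and 10.05 in leukemic cells, while the mitosis genes had means of 10.45 and 9.97.

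Between pre-B and immature B cells, the step at which a surface IgM receptor appears, 39 of the 45 genes fell and 0 rose (limma, Benjamini-Hochberg adjusted p under 0.05 over 12393 genes). All 45 differences were negative, with a median of -1.34 against -0.06 over all genes. For comparison, 8.7% of all genes were called lower and 10.9% higher at this step. Lower and higher calls together made up 19.6%. In 34 of the 45 genes every immature B array lay below every pre-B array, as it did for 4.62% of all genes. Within run 1 alone 35 genes fell (median -1.41) and within run 2 alone 38 (median -1.24). Myeloid and erythroid markers moved the other way: 6 of 14 myeloid and 5 of 9 erythroid markers rose, the myeloid mean was 9.5 (8.24 to 10.22) in immature B against 8.32 (7.24 to 9.24) in pre-B cells, and the erythroid mean was 6.17 (5.23 to 6.86) against 5.26 (4.71 to 5.60). The part of these other cells in the fall was not tested. Without immature B array 4, which was lowest for many of the genes, 38 fell with a median of -1.22.

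All 6 MCM helicase subunits fell in immature B cells, by 1.03 (Mcm7) to 1.68 (Mcm5) on the log2 scale. Mcm4 fell by 1.09, Mcm3 by 1.22 and Mcm6 by 1.67. Mcm2 had a lowest, median and highest level of 9.77, 9.91 and 10.35 in pre-B cells and 7.64, 8.68 and 8.98 in immature B cells, and 7.77, 8.21 and 8.22 on the 3 mature B arrays. The groups did not overlap between pre-B and immature B, and Mcm2 fell by 1.44 (SE 0.23, adjusted p = 4.23e-05). For Mcm7 the pre-B levels were 11.46, 12.09 and 12.60 and the immature B levels 10.26, 11.05 and 11.60, with mature B arrays at 10.85, 11.41 and 11.18. Mcm7 was the helicase gene whose ranges touched, and it fell by 1.03 (SE 0.28, adjusted p = 0.0087).

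Among licensing genes the falls were uneven. Cdc6, the ATPase that recruits the helicase, fell by 2.33 (SE 0.35, 5.01-fold, adjusted p = 2.76e-05), the largest change of all the genes listed. Its levels were 7.67, 8.50 and 9.05 (lowest, median and highest) in pre-B cells and 4.50, 6.34 and 7.03 in immature B cells, without overlap. Orc1 and Orc6, subunits of the origin recognition complex, fell by 1.10 and 1.43, and Gmnn, the Cdt1 inhibitor geminin, fell by 1.64. Cdt1 and Orc2 did not pass the test. Cdt1 was at 10.20, 10.45 and 10.98 in pre-B cells and at 9.74, 10.13 and 10.23 in immature B cells (difference -0.44, adjusted p = 0.123), and it stood at 10.45, 10.57 and 10.51 on the mature B arrays. All 3 mature B arrays thus lay above every immature B array for Cdt1, a difference that was not called. Orc2 was at 8.32, 9.06 and 9.38 in pre-B cells and at 8.34, 8.55 and 8.99 in immature B cells (difference -0.35, adjusted p = 0.165).

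All 4 measured firing genes fell. Mcm10, which helps to open the helicase, fell 4.13-fold, and Cdc45, a subunit of the active helicase, fell 3.66-fold. Gins1, a GINS subunit, had levels of 9.75, 10.29 and 10.92 in pre-B cells and 7.49, 8.49 and 8.86 in immature B cells, and 7.67, 8.61 and 7.98 in mature B cells. It fell by 1.97 (SE 0.26, adjusted p = 4.68e-06) without overlap. Cdc7, the kinase that fires origins, was at 10.93, 11.04 and 11.32 in pre-B cells and at 9.38, 9.86 and 10.51 in immature B cells, and fell by 1.18.

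Of the polymerase and primase subunits 6 of 8 fell. Pole, the leading-strand catalytic subunit, fell by 1.82, and Pola1 and Prim1, which make the primers, fell by 1.62 and 1.60. The polymerase delta subunit Pold2 fell by 1.30 and Pole2 by 1.48. The primase subunit Prim2 had levels of 9.67, 10.21 and 10.47 in pre-B cells and 8.52, 8.86 and 9.0 in immature B cells, with 8.04, 8.85 and 8.05 on the mature B arrays. It fell by 1.34 and the groups did not overlap. Pold1, the catalytic subunit of polymerase delta, was at 11.07, 11.46 and 11.72 in pre-B and at 11.04, 11.21 and 11.91 in immature B cells, and 10.86, 11.20 and 10.70 in mature B cells. The ranges overlapped almost fully, and the interval of the difference ran from -0.41 to 0.20. Pola2 just missed the threshold at -0.83 (adjusted p = 0.0525).

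Of the clamp and clamp loader genes 4 of 6 fell. Pcna, the sliding clamp, fell by 0.81, from 12.59, 12.82 and 13.05 in pre-B cells to 11.62, 12.03 and 12.28 in immature B cells. Rfc4 was at 10.66, 10.93 and 11.23 in pre-B and at 9.30, 9.61 and 9.77 in immature B cells, and fell by 1.36 (adjusted p = 2.28e-06). Rfc1, the large loader subunit, was at 10.73, 11.21 and 11.58 in pre-B and at 10.77, 11.02 and 11.29 in immature B cells. Its groups overlapped and its difference was -0.17. Rfc2 differed by -0.05 and was not called either, while Rfc3 fell by 0.90 and Rfc5 by 1.24.

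The 5 genes of single-strand binding and fragment joining all fell. Lig1, the ligase that seals Okazaki fragments, was at 9.41, 9.84 and 10.35 in pre-B and at 7.02, 8.23 and 8.45 in immature B cells, and fell by 1.80 (SE 0.24, adjusted p = 5.11e-06). Rpa1, the large subunit of the single-strand binding protein, fell by 0.76, from 11.28, 11.53 and 12.03 to 10.41, 10.80 and 11.25. On the mature B arrays Rpa1 stood at 11.51, 11.60 and 11.47, above every immature B array and within the pre-B range. That difference of 0.71 from immature to mature B cells did not pass the test (adjusted p = 0.0734). The smaller subunits Rpa2 and Rpa3 fell by 0.84 and 1.01, and Fen1, the flap nuclease, fell by 0.64.

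All 5 nucleotide supply genes fell as well. Thymidine kinase, Tk1, was at 9.06, 9.77 and 10.44 in pre-B and at 6.80, 8.30 and 8.53 in immature B cells, and fell 3.22-fold. Rrm2, the S-phase subunit of ribonucleotide reductase, was at 12.22, 12.41 and 12.67 in pre-B and at 11.27, 11.57 and 11.65 in immature B cells, and fell by 0.90. Its other probe sets gave larger falls (-1.8 and -2.44). Rrm1, the partner of Rrm2, fell by 1.48, Dut, which removes dUTP, by 1.39, and Tyms, thymidylate synthase, by 1.25. Chaf1b, a subunit of the chromatin assembly factor that deposits histones behind the fork, fell by 1.53 (adjusted p = 0.0087). Chek1, the checkpoint kinase, fell by 1.93 and Timeless, a fork protection protein, by 1.70. E2f1 fell by 1.26, and E2f8, a repressor of the same promoters, by 1.89 (SE 0.24, adjusted p = 1.87e-06).

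Of the 34 genes that fell and had a promoter in the table, 10 held E2F-type letters (29.4%), and of the 5 that were not called, 2 held them (40%), Cdt1 and Pold1. Other lists moved at the same step. All 23 mitosis genes fell (median -1.88), each without overlap. Of 28 further replication genes 19 fell, led by Chtf18 (-1.75), Asf1b (-1.69) and Top2a (-1.52; 0.13 with _x_at, _s_at and _a_at probe sets left out), and Pold4, the small subunit of polymerase delta, rose by 0.60. Of 27 further nucleotide synthesis genes, 9 fell, with Mthfd2 (-1.11) and Uck2 (-1.05) among them, while Samhd1, which breaks down deoxynucleotides, rose by 1.01 and the mitochondrial thymidine kinase Tk2 rose by 0.86. Of 15 genes of the E2F and pocket protein network 8 fell and 0 rose.

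At the earlier step, from pro-B to pre-B cells, 4 of the 45 genes rose and 0 fell, while 33.6% of all genes were called, 17.9% higher and 15.7% lower. The 4 were Cdc7 (0.46, adjusted p = 0.0302), Rfc4 (0.49, adjusted p = 0.0321), Rpa3 (0.51, adjusted p = 0.022) and Rrm2 (0.45, adjusted p = 0.00602). The median over the 45 genes was 0.24, against 0.11 over all genes. Centring each array on its median moved the median of all genes to 0.38, so that 82.2% instead of 53.2% of the called genes were higher, and 23 listed genes were called higher. Without pro-B array 2 or 6 only 1 gene was called, without pro-B array 4 or pre-B array 5 there were 2, and without pro-B array 1 there were 9. Within run 1 alone 3 were called, within run 2 alone 0, and with near-identical arrays averaged 2. The pro-B group had the widest spread of all groups: arrays 2, 4 and 6 had means over the 45 genes of 9.52, 9.28 and 9.38, and arrays 1, 3 and 5 had 10.50, 10.39 and 10.10. Arrays 2, 4 and 6 also had the higher T and NK marker means (9.18, 8.79 and 8.85 against 7.92, 7.85 and 7.45) and the higher plasmacytoid dendritic marker means (11.99, 11.86 and 11.89 against 10.98, 10.79 and 10.71). Both sets of markers cover cells that the pro-B gate can admit, and their part in the result was not tested.

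From immature to mature B cells few changes passed the test, which had only 3 mature B arrays, all of run 2, against immature B arrays of both runs. Pola1 fell by 1.06 (adjusted p = 0.0409) and 0 genes rose, against 5.25% of all genes called, 3.29% lower and 1.96% higher. The median over the 45 genes was -0.17, with 30 differences below 0 and 15 above. Rpa1 and Cdt1 were the 2 genes whose mature B arrays all lay above every immature B array, a pattern seen in 4.52% of all genes. The call of Pola1 was lost without immature B array 1, 2, 3, 5 or 6 or mature B array 1 or 3, and in run 2 alone, which holds all mature B arrays. Of the 23 mitosis genes 6 fell at this step, and all 23 differences were negative, with a median of -0.83.

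The comparison of leukemic with normal pre-B cells set cells of the same surface phenotype side by side, and it shares the normal pre-B arrays with the step above. Of the 45 genes 2 were higher in leukemic cells, Orc2 and Tk1, and 3 were lower, E2f1, E2f8 and Rrm2. The other 40 did not pass the test, and in none of the 45 did the groups separate fully. Over all genes 16% were called, 8.5% higher and 7.53% lower, and 0.75% were fully separated upwards and 0.799% downwards. The median over the 45 genes was -0.07 against -0.01 over all genes, with 17 differences above and 28 below 0. These differences pool 2 runs that were not balanced. Run 1, where levels were lower, held 12 leukemic and 4 pre-B arrays, with means over the 45 genes of 9.93 and 9.92. Run 2 held 4 leukemic and 4 pre-B arrays, with means of 10.41 and 10.26, so the leukemic mean was not lower within either run. Within run 1 alone 0 of the 45 genes were called. Within run 2 alone 2 were higher and 3 lower, and the higher ones included Chaf1b but neither Orc2 nor Tk1. With the run as a covariate 4 were higher and 3 lower. Without leukemic array 122 there were 3 higher (Orc2, Prim2 and Chaf1b, and no longer Tk1) and 3 lower, and without array 116 there were 1 higher (Orc2) and 4 lower (Cdc7 in addition). Of 14 myeloid markers 5 fell in the leukemic cells, where their mean was 7.0 (5.03 to 9.86) against 8.32 (7.24 to 9.24) in pre-B cells, and their part in these differences was not tested.

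**Figure D3:**
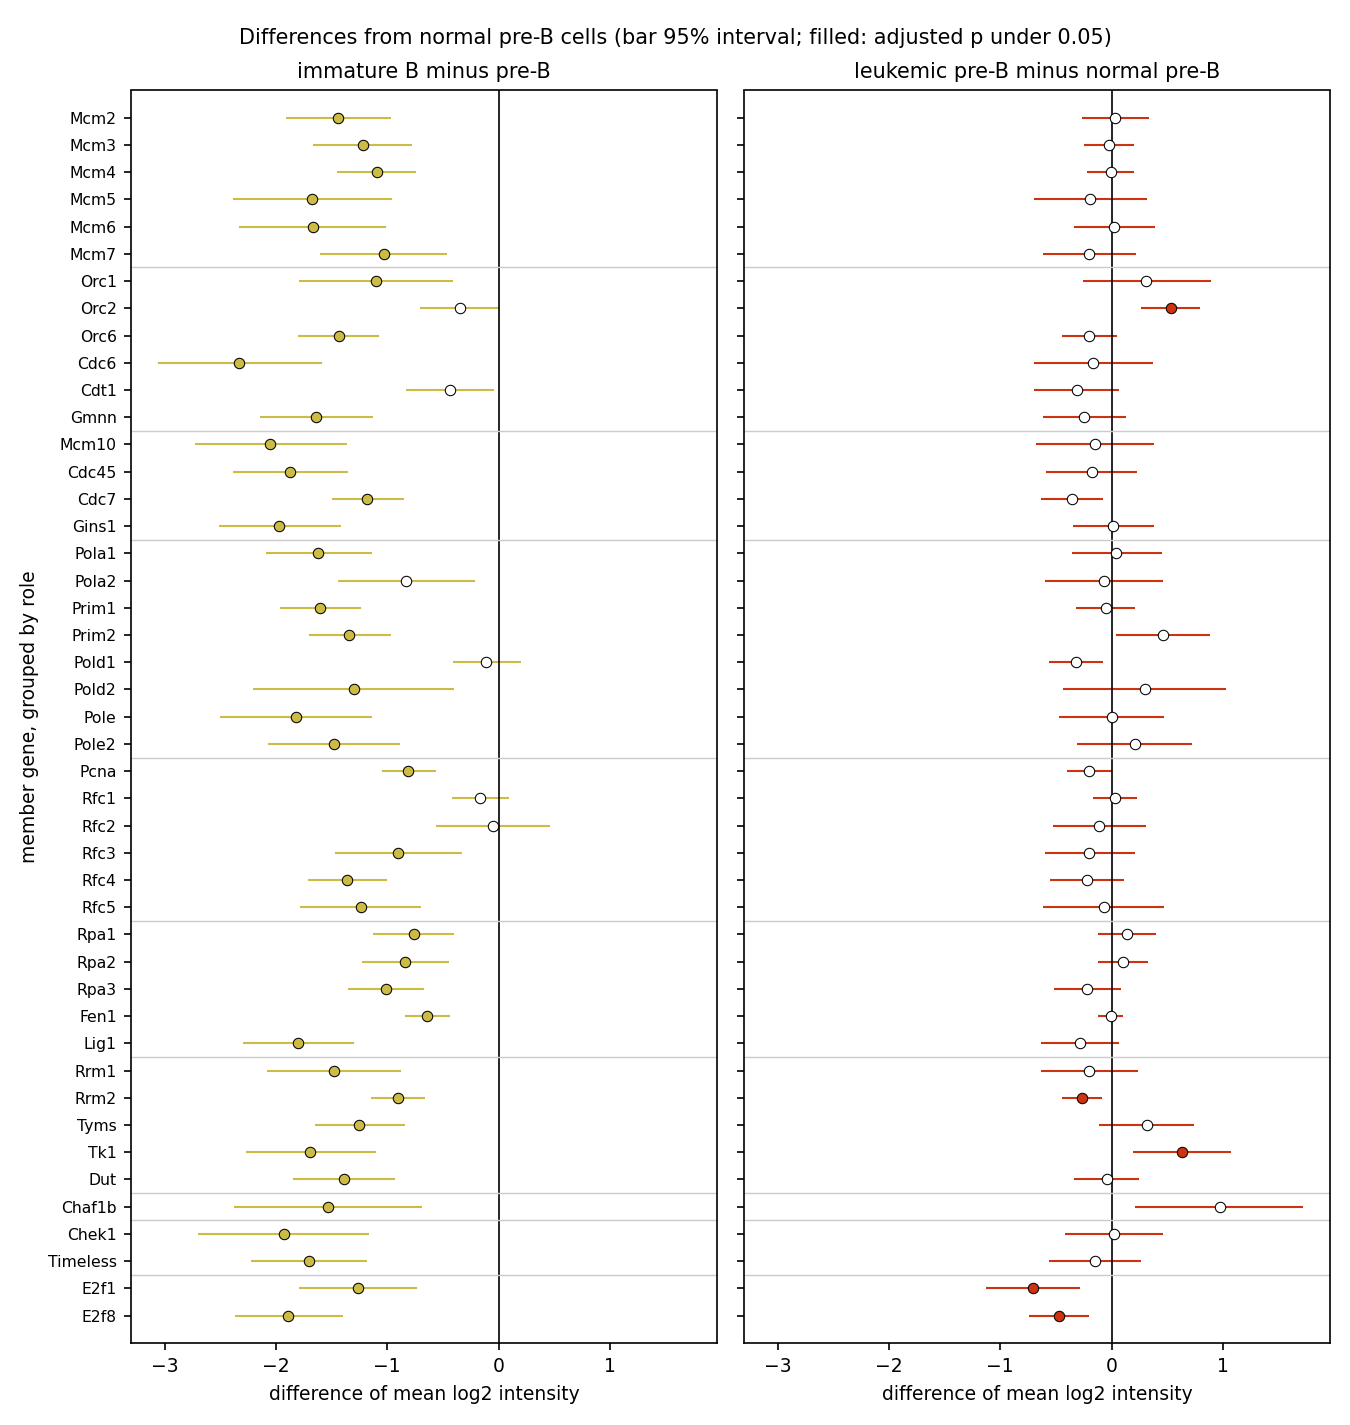
Log2 difference of each of the 45 genes from normal pre-B cells, by role, for immature B cells and for leukemic cells, with 95% confidence intervals; filled symbols have an adjusted p under 0.05. Immature B differences are all below 0, with a median of -1.34, and leukemic differences scatter around 0, with a median of -0.07; both use the same pre-B arrays.

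No MCM subunit was called, and all 6 differences lay between -0.20 and 0.03. Mcm2 was at 9.34, 10.20 and 10.55 in leukemic cells, and the pre-B range of 9.77 to 10.35 lay inside the leukemic one. The interval of its difference was -0.27 to 0.34. Mcm7 was at 10.97, 11.82 and 12.66 in leukemic cells, with an interval of -0.62 to 0.22. The Mcm7 interval includes a difference as large as that of E2f8 (-0.47), and the Mcm2 interval does not. Each interval is for the chosen probe set only, and the other Mcm2 probe set differed by -0.22.

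Orc2, a core subunit of the origin recognition complex, had levels of 9.04, 9.49 and 9.91 in leukemic cells against 8.32, 9.06 and 9.38 in pre-B cells. The ranges overlapped, with 12 of 16 leukemic arrays above every pre-B array and arrays 226, 15, 122 and 270 within the pre-B range. Orc2 was 0.53 higher (SE 0.13, 1.44-fold, adjusted p = 0.00465). The call held without any single array of either group. It did not hold for the mean of its probe sets (0.44, adjusted p = 0.0527), nor in run 1 (0.46, adjusted p = 0.0983) or run 2 alone (0.49, adjusted p = 0.12). Among the other licensing genes Cdt1 ran from 9.61 to 11.09 in leukemic cells, the middle pair of arrays being at 9.91 and 10.09, with 9 of 16 arrays below every pre-B array and a difference of -0.31 (interval -0.70 to 0.07). Cdc6, Orc1, Orc6 and Gmnn lay between -0.25 and 0.31 and were not called.

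Among the firing genes Gins1 was at 9.27, 10.41 and 10.87 in leukemic cells, which spans nearly the pre-B range, with a difference of 0.01 (interval -0.35 to 0.38). Cdc7 was at 9.68, 10.75 and 11.30, and 12 of 16 leukemic arrays lay below the lowest pre-B array at 10.93. Its difference of -0.36 missed the threshold (adjusted p = 0.0724). In the polymerase group Prim2 was at 9.52, 10.60 and 11.60 in leukemic cells, with 10 of 16 arrays above every pre-B array and array 122 below every one. Prim2 was 0.46 higher (SE 0.21, adjusted p = 0.14) with all arrays and 0.53 higher without array 122 (adjusted p = 0.0487), so that array decided the call. Pold1 was at 10.48, 11.10 and 11.78, and its difference of -0.32 was not called (adjusted p = 0.0644). The other 6 polymerase and primase genes lay between -0.07 and 0.30.

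The clamp loader subunit Rfc1 was at 10.92, 11.20 and 11.61 in leukemic cells, close to the pre-B range of 10.73 to 11.58, with a difference of 0.03 (interval -0.17 to 0.23). The other Rfc1 probe sets differed by -0.25 and -0.15, and their correlations with the chosen one over the arrays were only 0.01 and 0.19. Rfc4 was at 10.01, 10.64 and 11.33 and differed by -0.22 (interval -0.55 to 0.11). Pcna was at 11.95, 12.74 and 12.89 and differed by -0.20 (interval -0.40 to 0.00). Rpa1, at 11.23, 11.67 and 12.20, differed by 0.14, and Lig1, at 8.68, 9.65 and 10.06, by -0.28. None of the 5 genes of single-strand binding and fragment joining was called. Chek1 was at 8.29, 9.47 and 10.01 and Timeless at 8.23, 9.15 and 9.82 in leukemic cells, against medians of 9.33 and 9.16 in pre-B cells, with differences of 0.02 and -0.15.

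The nucleotide supply genes moved both ways. Tk1, which salvages thymidine, was at 9.30, 10.38 and 11.22 in leukemic cells against 9.06, 9.77 and 10.44 in pre-B cells, and 8 of 16 leukemic arrays lay above every pre-B array. Arrays 116 and 154 were highest at 11.14 and 11.22. Tk1 was 0.63 higher (SE 0.21, 1.55-fold, adjusted p = 0.0442), and 14 of the 24 fits that left out a single array lost this call. The difference was 0.70 in run 1 (adjusted p = 0.176) and 0.79 in run 2 (adjusted p = 0.0525). Rrm2 was at 11.82, 12.15 and 12.58 against 12.22, 12.41 and 12.67, with 10 of 16 leukemic arrays below every pre-B array. It was 0.27 lower (difference -0.27, SE 0.09, 1.21-fold, adjusted p = 0.0318), a call that was lost without pre-B array 1, 5, 7 or 8. The other probe sets of Rrm2 gave larger falls of 1.11 and 1.06 (-1.11 and -1.06), and the mean over its probe sets was -0.81 (adjusted p = 0.00517). Rrm1, Tyms and Dut lay between -0.20 and 0.32 and were not called.

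Chaf1b showed the widest spread among leukemic arrays. Its levels were 7.59, 8.82 and 10.95 in leukemic cells against 7.29, 8.16 and 9.21 in pre-B cells. Arrays 154, A1322, A992, A46, 17, 15 and 270 lay above every pre-B array, from 9.31 to 10.95, and none lay below. The difference of 0.97 (SE 0.37, interval 0.21 to 1.72) missed the threshold at an adjusted p of 0.0764. All 4 leukemic arrays of run 2 were among those 7. With the run as a covariate Chaf1b was 1.32 higher (adjusted p = 0.000571), and it was 1.09 higher within run 1 (adjusted p = 0.0864) and 1.67 higher within run 2 (adjusted p = 0.00254). It was also called without leukemic array 117 (1.07, adjusted p = 0.0379), without array 122 (1.05, adjusted p = 0.0447) and without pre-B array 4 (1.11, adjusted p = 0.0479).

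Both E2F genes were lower in the leukemic cells. E2f1, an activator, was at 7.04, 7.97 and 9.40 in leukemic cells against 8.16, 9.0 and 9.17 in pre-B cells, with 10 of 16 leukemic arrays below every pre-B array. Array 116, labelled leukemic but with no word on leukemia in its description, was the highest at 9.40 and lay above every pre-B array. E2f1 was 0.71 lower (difference -0.71, SE 0.21, 1.63-fold, adjusted p = 0.0184). Its other probe set differed by -0.05, the mean of both by -0.38 (adjusted p = 0.194), and the difference in run 1 alone was -0.60 (adjusted p = 0.297). E2f8 was at 9.60, 10.73 and 11.05 against 10.87, 11.11 and 11.31, with 11 of 16 arrays below every pre-B array and none above. It was 0.47 lower (difference -0.47, SE 0.13, 1.39-fold, adjusted p = 0.0148). After median centring the difference was -0.45 (adjusted p = 0.0507), and in run 1 alone it was -0.44 (adjusted p = 0.213).

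**Figure D4:**
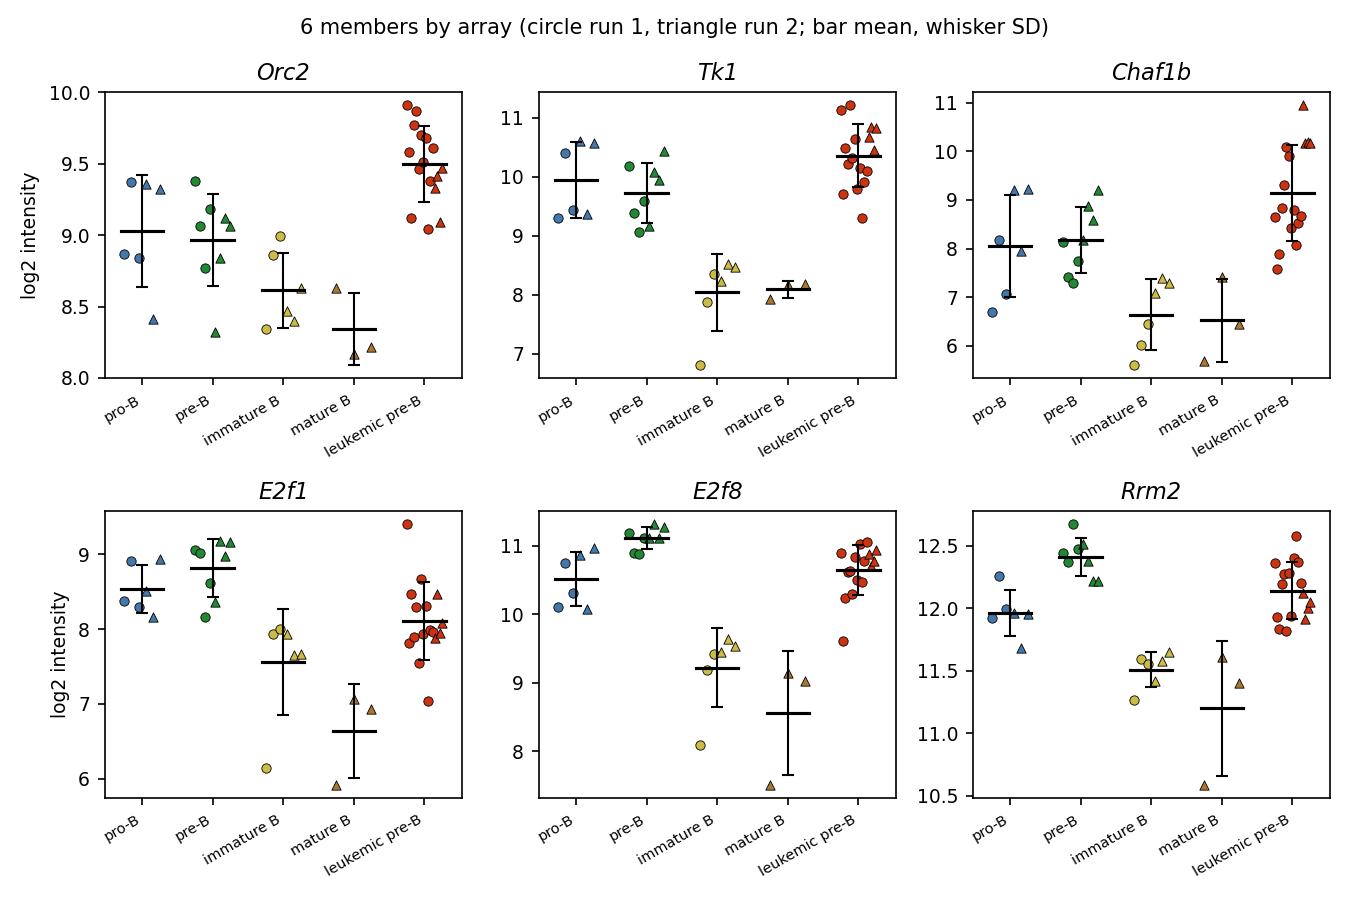
Log2 level on each array, by group, of the 5 genes called between leukemic and normal pre-B cells (Orc2, Tk1, E2f1, E2f8, Rrm2) and of Chaf1b; each point is an array and bars are group means. Orc2 and Tk1 lie higher and E2f1, E2f8 and Rrm2 lower on most leukemic arrays than on pre-B arrays, always with overlap, and Chaf1b spans 7.59 to 10.95 among leukemic arrays.

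The lists of related genes differed from the 45 genes in this comparison. Of 27 further nucleotide synthesis genes, 17 rose and 3 fell in leukemic cells, with a median of 0.65. Shmt2, the mitochondrial serine hydroxymethyltransferase that feeds one-carbon units into purines and thymidylate, rose by 2.01 (SE 0.23, 4.03-fold, adjusted p = 6.08e-07). Uck2, the uridine-cytidine kinase, rose by 1.5 (SE 0.17, adjusted p = 5.73e-07) and Nme2, a nucleoside diphosphate kinase, by 0.67 (adjusted p = 3.67e-07). In these 3 genes all 16 leukemic arrays lay above every pre-B array, as they did in 0.75% of all genes. Impdh1, an enzyme of guanine nucleotide synthesis, rose by 1.48 on average (adjusted p = 0.00017), and was 1.19 higher in run 1 alone (adjusted p = 0.0526). The genes that fell were Samhd1 by 1.75 (SE 0.40, adjusted p = 0.00278), the p53-regulated reductase subunit Rrm2b by 0.85 (adjusted p = 0.00486) and Ctps2, a CTP synthase, by 0.57 (adjusted p = 0.00422). None of these 3 falls was called in run 1 alone. The mean over the list was 10.24 ± 0.15 in leukemic cells, 9.72 ± 0.20 in pre-B cells and 9.99 ± 0.26 in pro-B cells (SD). From pro-B to pre-B cells 7 of these 27 genes fell and 2 rose. Impdh1 averaged 8.73 in pro-B, 7.15 in pre-B and 8.63 in leukemic cells. In the same order Shmt2 averaged 8.88, 7.74 and 9.75, and Uck2 9.92, 8.86 and 10.36. Rrm2b, lower in leukemic than in pre-B cells, averaged 11.42, 12.4 and 11.55.

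**Figure D5:**
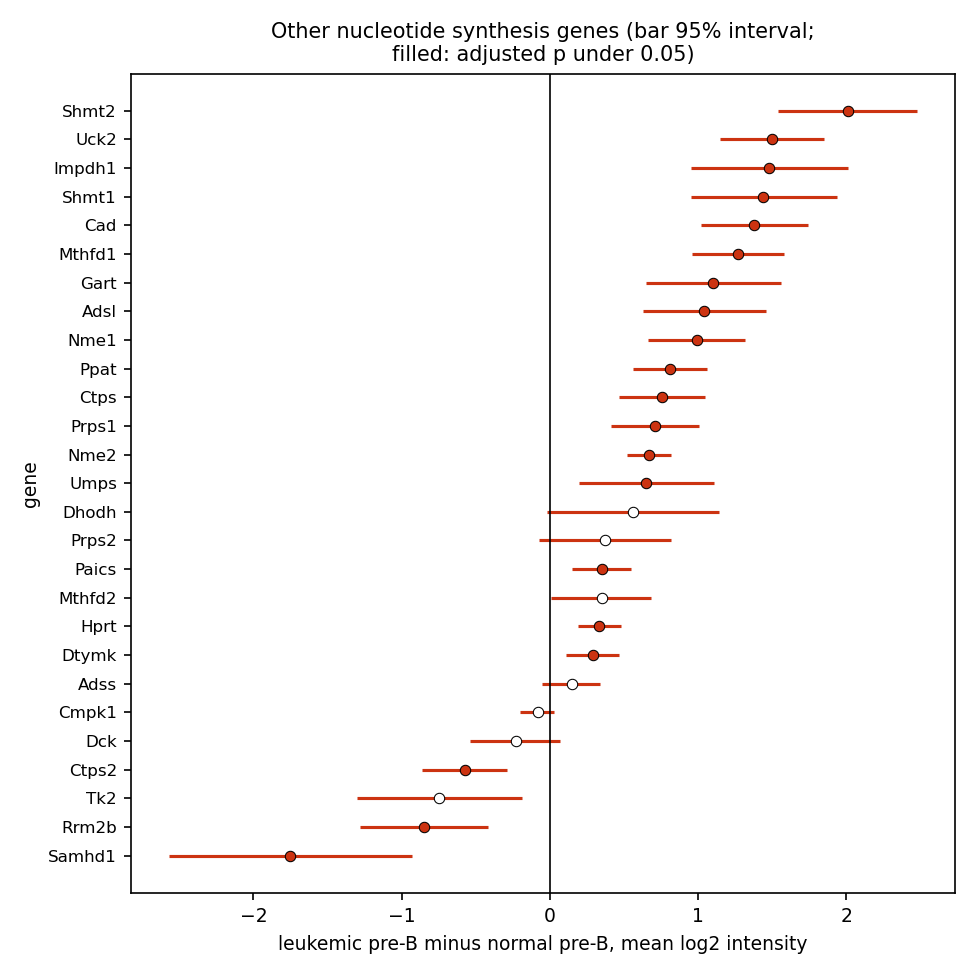
Log2 difference between leukemic and normal pre-B cells of 27 further nucleotide synthesis genes, with 95% confidence intervals; filled symbols have an adjusted p under 0.05. Shmt2, Uck2 and Impdh1 have the largest positive differences (2.01, 1.5 and 1.48), and Samhd1, Rrm2b and Ctps2 are the 3 that fell.

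Of 28 further replication genes 4 were called (14.3%, against 16% of all genes). Dna2, a nuclease and helicase of Okazaki fragment processing, rose by 0.88 (adjusted p = 1.49e-05) with 15 of 16 arrays above every pre-B array, and the checkpoint kinase gene Atr rose by 0.60 (adjusted p = 0.049), a call lost in 17 of 24 fits without a single array. Pold4 fell by 0.55 (not called in run 2 alone) and the histone chaperone Asf1a by 0.46 (not called in run 1 alone). Both were higher in pre-B than in pro-B cells. Pold4 averaged 9.63 in pro-B, 10.4 in pre-B and 9.85 in leukemic cells, and Asf1a 10.21, 10.88 and 10.42. In the E2F and pocket protein network 3 of 15 genes fell and 0 rose. Rb1, the retinoblastoma gene that restrains E2F factors, fell by 0.91 (SE 0.14, adjusted p = 5.67e-05) with all 16 leukemic arrays below every pre-B array. Its mean was 10.45 in pro-B, 11.19 in pre-B and 10.28 in leukemic cells. Rbl1, a relative of Rb1, fell by 0.39, a call lost after median centring (-0.37, adjusted p = 0.098), with the mean of its probe sets, in run 1 alone and without pre-B array 2, 5 or 8. Myb fell by 0.27, a call lost after median centring (-0.26, adjusted p = 0.153) and in run 2 alone. Of the 23 mitosis genes 7 fell and all 23 differences were negative, with a median of -0.48. Cenpe, a kinetochore motor, fell by 0.85 but was not called in run 1 or run 2 alone (-0.79 and -0.50). Foxm1, a transcription factor that drives entry into mitosis, fell by 0.73, and this was not called in either run alone (-0.71 and -0.29), with the mean of its probe sets, with _x_at, _s_at and _a_at probe sets left out, or without pre-B array 1, 2, 3 or 4. Kif23, a motor of cytokinesis, fell by 0.68 and was not called in run 2 alone (-0.30).

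Against pro-B cells the leukemic cells were higher in Orc2 (0.47, adjusted p = 0.0383) and Prim2 (0.79, SE 0.24, adjusted p = 0.0334), with 12 and 11 of 16 arrays above every pro-B array, and 0 of the 45 genes were lower. Over all genes 15.7% were called, 8.11% higher and 7.63% lower. The median over the 45 genes was 0.18, against 0.13 over all genes. Both calls were lost without pro-B array 2, 4 or 6, also with the near-identical arrays averaged, and in run 1 alone, while run 2 alone called Chaf1b instead. After median centring the median over all genes was 0.41, 87.8% instead of 51.5% of the called genes were higher, and 16 of the 45 genes were called higher. Without leukemic array 122 or array 116, Orc2 and Prim2 were again the 2 called genes, with medians of 0.19 and 0.13 over the 45 genes. Chaf1b was 1.09 higher (adjusted p = 0.0905). Markers of other cells were lower in the leukemic cells: 7 of 7 plasmacytoid dendritic markers fell (mean 7.44, range 6.39 to 9.65, against 11.37, range 10.71 to 11.99), as did 10 of 13 T and NK markers (5.59, 4.64 to 6.92, against 8.34, 7.45 to 9.18) and 7 of 14 myeloid markers (7.0, 5.03 to 9.86, against 9.64, 9.32 to 10.08). Their part in the result was not tested. Of the 27 further nucleotide synthesis genes 6 rose. In all 23 mitosis genes and all 15 genes of the E2F and pocket protein network the test was not passed.

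Against immature B cells, the stage after the pre-B gate, 39 of the 45 genes were higher in leukemic cells and 0 were lower, with a median of 1.35 against 0.07 over all genes. Over all genes 24.7% were called, 12.3% higher and 12.4% lower. In 24 of the 45 genes every leukemic array lay above every immature B array, against 2.96% of all genes. The largest differences were those of Chaf1b (2.5, 5.65-fold), Tk1 (2.32, 4.99-fold) and Cdc6 (2.16, 4.46-fold). The genes not called were Cdt1 (0.12), Pola2 (0.76, adjusted p = 0.0595), Pold1 (-0.21), Rfc1 (0.20), Rfc2 (-0.06) and E2f1 (0.55, adjusted p = 0.145). Within run 1 alone 38 genes were higher and within run 2 alone 41. Without array 122, without array 116 or without immature B array 4 the count was 39 each time, with medians of 1.39, 1.33 and 1.12. In the leukemic cells 7 of 14 myeloid markers were lower (mean 7.0, range 5.03 to 9.86, against 9.5, range 8.24 to 10.22), as were 6 of 9 erythroid markers (4.90, 4.30 to 5.29, against 6.17, 5.23 to 6.86), and their part in the differences was not tested. All 23 mitosis genes were higher, and of the 27 further nucleotide synthesis genes 20 were higher and 4 lower.

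Among the leukemic arrays, 5 came from mice with pIpC in the description and 11 did not. None of the 45 genes was called between them by limma, nor was any of the 12393 genes (0%). At an unadjusted p under 0.05, 2 of the 45 genes (4.44%) and 4.87% of all genes passed: Prim2 was 0.62 higher and Chaf1b 1.12 higher with pIpC (p = 0.018 for Chaf1b, adjusted p = 0.933 by limma). Run 2 held arrays 270 and A46 with pIpC and arrays 15 and 17 without it, a larger share of the arrays with pIpC. All of these run 2 arrays were among those with Chaf1b above every pre-B array. Without array 122 or array 116 the adjusted test again called 0 of the 45 genes.

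The 45 genes varied together over arrays. As a description, the Pearson correlation of each gene with the mean of the others had a median of 0.95 over the 23 normal arrays (0.28 to 0.99), where the arrays share the difference between stages, and 42 of 45 genes reached at least 0.5. The 16 leukemic arrays share a difference between runs (means of 9.93 in run 1 and 10.41 in run 2), whose part here was not tested. Over these arrays the median correlation was 0.79 (0.17 to 0.96), and 38 of 45 genes reached 0.5. The lowest were Rrm2 at 0.17, Pola1 at 0.29 and Orc2 at 0.30. Outside the list, the genes whose pattern was most like the mean of the 45 over the normal arrays were Tipin (0.99), Ska1, Brca1, Tacc3, Mms22l, Hdgf, Kif18a, Aurkb, Rcc1 and Blm (each 0.98). Over the leukemic arrays they were Lsm2 (0.95), Dpy30 (0.94), Exo1, Wdr4 and Cdca5 (0.93 each), followed by Timm10, Hpf1, Ercc6l, Haspin and Brca1 (0.92 each). Brca1 appears in both sets.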

How the data were processed

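After Trizol extraction, 20 ng of RNA was amplified and biotin-labelled with NuGEN Ovation, per the labels' protocols. Each deposited intensity is a probe set's summary by RMA, as the authors' processing notes name it without a version. They were linear (array medians 82.0 to 108.7, maxima 15090 to 18549) and were taken to log2 with no offset. Whether all 39 arrays were normalized together is not given in the sources used here. Precision is limited by how many arrays each group has.

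Of 22690 probe sets, 64 controls, 691 with several symbols and 1555 with none were left out, and the other 20380 covered 12393 genes, for each of which the probe set of greatest average level was used. Of the 45 listed genes measured, 26 had more probe sets. All 38 of these had the same sign as the chosen one between immature and pre-B cells, and 29 of 38 between leukemic and pre-B cells.

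Groups followed the labels. Comparisons used limma 3.58.1 in R 4.3.3 (lmFit, eBayes with an intensity trend, two-sided) with Benjamini-Hochberg adjustment over all genes and a threshold of 0.05. The steps between normal stages came from 1 fit of the 23 normal arrays, and each leukemic comparison from a fit of the arrays compared. Confidence intervals are at 95%. A level is a mean log2 intensity, and levels are compared within a probe set only. Alternatives were quantile normalization, median centring, removal of dim genes (the lowest 40%), probe set averages per gene, removal of _x_at, _s_at and _a_at probe sets, a single fit of all 39 arrays, eBayes without the trend or with robust settings, run as covariate, single runs, a replicate block, and each array left out in turn; averaging near-identical arrays was added after the data were seen. Beta-actin 3' minus 5' probe sets differed by 1.29 in run 1 and 0.80 in run 2.

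The genes, the related lists and the marker lists were chosen with earlier results of these data known. All 45 measured genes are named. Lowest, median and highest levels are given for the genes with the largest and smallest leukemic difference of each role, and for Cdc6 and Pcna, which were chosen after their values were seen. Of the related lists, up to 3 called genes per direction are named, and Nme2 as a gene whose groups did not overlap. The models were tested on simulated data with arrays drawn independently and no difference between runs. In each comparison 200 genes were changed, by 1 or 2 log2 units in equal numbers. Of the changes of 2 units 90 to 100 were called, and of those of 1 unit 60 to 84. Among unchanged genes 4 to 11 were called, and smaller changes were not simulated. Promoters are those of RefSeq.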

Additional observations from a re-analysis of the deposited data

Results flagged for a closer look

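In each group of 4 to 10 arrays, the lowest and highest array was checked for a gap to its neighbour that is large for the range of the group (Dixon's criterion at 95%), and 12 of 138 checks met it. Chance gives about 1 in 20. Of these, 11 concern immature B array 4 and share that library, so they are not separate observations. Its level was 7.64 for Mcm2 (other immature B arrays 8.53 to 8.98), 8.52 for Mcm3 (9.67 to 10.02), 5.37 for Mcm10 (6.91 to 7.13), 5.96 for Pole (7.33 to 7.84), 5.92 for Pole2 (7.41 to 7.67) and 7.02 for Lig1 (8.07 to 8.45). It was also 6.18 for Chek1 (7.49 to 7.76), 6.67 for Timeless (7.5 to 7.98), 6.14 for E2f1 (7.65 to 8.0) and 8.09 for E2f8 (9.19 to 9.63). The mean over all 45 genes was 8.09 on this array and 8.76 to 9.09 on the others. Without it, 38 of the 45 genes fell from pre-B to immature B cells, with a median of -1.22. The remaining one is Cdt1 on immature B array 6, at 9.74 against 10.06 to 10.23 on the other arrays of the group.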

How the results depend on the processing

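The fall of most of the genes in immature B cells held its direction and its count within 1.5 times under all alternatives run (34 to 41 of 45, and 37 to 40 without a single array), as did the count against immature B cells in the leukemic comparison (33 to 41 of 45, and 39 to 40 without a single array); the smaller counts did not. Beside the 1987 genes of the comparison of leukemic with normal pre-B cells, run 1 alone called 1001. Of the 45 genes, called lower were 1 after median centring, 5 without dim genes and 0 in run 1 alone, and called higher were 1 with the mean of probe sets, 1 without the trend, 4 with the run as a covariate and 0 in run 1 alone. Leaving out single arrays gave 1 to 3 higher and 2 to 4 lower, 1617 to 2359 genes and medians of -0.16 to 0.00; 1 was higher without pre-B array 1, 3, 6, 7 or 8 or leukemic array 116, 154, A992, A1322, 270, A46, 15 or 17.

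Against pro-B cells (1950 genes), median centring called 6305 genes and 16 higher listed genes, leaving out dim genes 813 genes, run 1 alone 344 and 0 higher, run 2 alone 786 and 1 higher, and averaged near-identical arrays 587 and 0 higher; 1 was higher with the mean of probe sets and 5 with the run as a covariate. Single arrays left out gave 860 to 2777 genes and 0 to 2 higher: 860 genes without pro-B array 2, 957 without 6, 1252 without 3 and 1286 without 1, and 1 higher without leukemic array 154, A1322, 224 or 228. Against immature B cells (3061 genes), run 1 alone called 1584; median centring made 61.4% instead of 49.9% of the called genes higher.

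From pro-B to pre-B (4162 genes), median centring called 7451 genes and 23 higher, leaving out dim genes 2509 genes, all 39 arrays in 1 fit 2627 and 2 higher, run 1 alone 2191, run 2 alone 2055 and 0 higher, and averaged near-identical arrays 2500 and 2 higher; 1 was higher without _x_at, _s_at and _a_at probe sets and 7 with the run as a covariate. Single arrays left out gave 3190 to 4833 genes and 1 to 9 higher, with 6 without immature B array 4. From pre-B to immature B (2426 genes), 1414 were called with all 39 arrays and 1314 in run 1 alone, and median centring made 41.7% instead of 55.6% of the called genes higher. From immature to mature B (651 genes), all 39 arrays in 1 fit gave 203 genes and 0 lower, run 2 alone 0 lower, median centring 1 higher, and averaged arrays 1 higher and 0 lower. Single arrays left out gave 241 (mature B 1) to 801 genes, 364 without mature B 3, 0 to 1 higher (1 without pro-B 1 or immature B 1) and 0 to 2 lower (2 without immature B 4 or mature B 2). For pIpC (0 genes), 1 gene was called without _x_at, _s_at and _a_at probe sets, 59 with all 39 arrays, 1 in run 1 alone, and 0 to 2 without a single array (2 without A46). Top2a reversed without those probe sets, to 0.13 from pre-B to immature B and 0.12 from immature to mature B; the cause of these changes was not tested.

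For 27 pairs of normal arrays with the same replicate number, the correlation of their deviations from the group means ran from -0.74 to 0.66. Of these, 16 were above 0.1 and 6 below -0.1. The lowest pair, immature B 4 with pre-B 4, joins an array of run 1 to one of run 2. This cannot show whether the numbers pair arrays, because group means spanned both runs and arrays of different numbers were not compared. With the number as a replicate block, 0 of the 45 genes were lower from immature to mature B. Over single values, leaving out an array kept 8460 on the same side of the threshold with the same direction, weakened 111 below it and raised 33 past it; the other alternatives kept 4406, weakened 116, raised 68 and reversed 2.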
